A study of Saccharomyces cerevisiae with 4 samples.

Results

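The genes of the cohesin complex and of its loader and regulators were followed in budding yeast (Saccharomyces cerevisiae) with and without TRF4. Members were taken by systematic name and are 9 genes, namely SMC1, SMC3, MCD1, IRR1, SCC2, SCC4, PDS5, RAD61 and ECO1, among 7445 features in the deposited table. RNA was sequenced in 2 libraries of a trf4::HphMX4 strain (trf4Δ) and 2 libraries of the wild type, all of the W303 background, grown exponentially at 25 °C in YPDA medium. In trf4Δ a hygromycin resistance cassette replaces TRF4, whose product adds short tails to nuclear RNA as part of TRAMP and so hands it to the exosome. The labels do not say whether the libraries of a group came from separate cultures or clones, so p-values measure only the spread between these libraries, which may be technical.

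Cohesin is a ring that holds sister chromatids together from S phase until anaphase. Smc1 and Smc3 are long ATPases that pair with each other, Mcd1 is the kleisin that closes the ring and is cut by separase, and Irr1 (also called Scc3) binds the kleisin. Scc2 and Scc4 load the ring onto DNA, Pds5 maintains cohesion, Rad61 (also called Wpl1) releases cohesin from chromatin, and Eco1 acetylates Smc3 at replication forks and so locks cohesion. Cohesin is densest around yeast centromeres, where it resists the pull of the spindle. Many yeast genes of chromosome duplication are transcribed at the G1/S transition by the factors MBF and SBF, which recognise short elements called MCB and SCB.

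The promoters were read first, since they hold a feature that many of the genes shared and that the choice of members did not use. The windows ran from 250 bases before to 50 bases after each annotated gene start, in the RefSeq annotation of assembly R64, which is the build sacCer3 named in the submitters' processing notes. The MCB consensus, ACGCGT, which is its own reverse complement, was present in 5 of the 9 windows, against 3.07% of the 6001 windows of nuclear protein-coding genes. The stretches below show each match in capitals with 30 bases on both sides, 5′ to 3′ on the strand of the gene, because they allow the elements and their surroundings to be compared. SMC1 is shown from chrVI:119277-119342 (plus strand), SMC3 from chrX:302931-302996 (minus strand), IRR1 from chrIX:308022-308094 (minus strand), PDS5 from chrXIII:420162-420227 (minus strand) and ECO1 from chrVI:207288-207353 (plus strand).
SMC1: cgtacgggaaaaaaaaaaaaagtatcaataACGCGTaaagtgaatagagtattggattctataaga
SMC3: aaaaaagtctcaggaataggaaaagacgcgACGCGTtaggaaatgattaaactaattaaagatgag
IRR1: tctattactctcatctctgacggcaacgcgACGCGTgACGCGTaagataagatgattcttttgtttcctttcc
PDS5: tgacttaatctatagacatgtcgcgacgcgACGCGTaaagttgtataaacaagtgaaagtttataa
ECO1: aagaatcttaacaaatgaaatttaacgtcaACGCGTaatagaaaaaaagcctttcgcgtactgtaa

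All these matches began between 117 and 168 bases before the gene start. IRR1 had 2 matches separated by a single base. In SMC3, IRR1 and PDS5 the match was part of a longer run, ACGCGACGCGT, which was chosen after the stretches had been seen and was found on either strand in 12 of the 6001 windows (0.2%). The SCB consensus, CNCGAAA on either strand, was present in the windows of ECO1 and SCC2, and in 13.8% of all windows. The windows of MCD1, SCC4 and RAD61 held neither set of letters.

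For MCD1 the window was extended to 500 bases before the start, a choice made after the first result was known. There, 2 matches to ACGCGT were found, at 372 and 292 bases before the gene start (chrIV:444281-444346 and chrIV:444361-444426, plus strand), and they are shown in the same way. With this window 6 of the 9 genes and 5.58% of 6000 nuclear protein-coding genes had a match. A match describes the sequence and says nothing of whether the site is bound.
MCD1 distal: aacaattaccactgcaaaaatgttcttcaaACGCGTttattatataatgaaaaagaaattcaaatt
MCD1 proximal: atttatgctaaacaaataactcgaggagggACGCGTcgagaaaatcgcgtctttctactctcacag

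**Figure D1:**
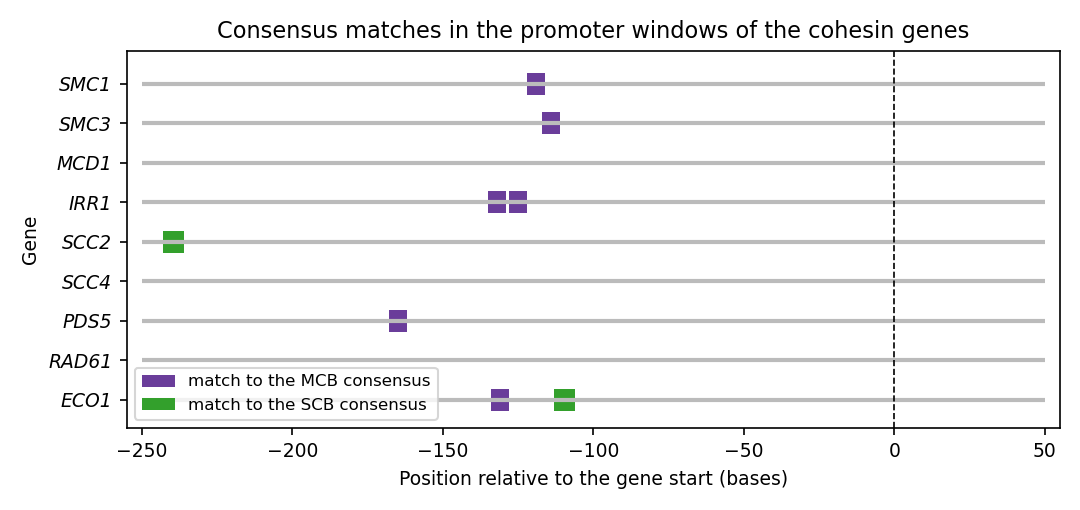
Matches to the MCB consensus (purple) and the SCB consensus (green) in the promoter windows of the 9 genes, drawn to scale against the distance from the gene start in bases (horizontal axis, one line per gene). MCB matches lie 112 to 168 bases before the start of SMC1, SMC3, IRR1, PDS5 and ECO1, and none lies in the windows of MCD1, SCC2, SCC4 and RAD61.

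The genes lie on 6 chromosomes, and each is a single uninterrupted coding segment in the annotation. MCD1 (YDL003W, chrIV:444683-446383, plus strand) is the nearest to a centromere, at 3.41 kb from it. RAD61 (YDR014W, chrIV:474046-475989, plus strand) lies 24.2 kb away on the same chromosome, and SMC1 (YFL008W, chrVI:119429-123106, plus strand) lies 25.5 kb from the centromere of its own. The others are IRR1 (YIL026C, chrIX:304477-307929, minus strand), ECO1 (YFR027W, chrVI:207452-208297, plus strand), SMC3 (YJL074C, chrX:299157-302849, minus strand), PDS5 (YMR076C, chrXIII:416196-420029, minus strand), SCC4 (YER147C, chrV:462968-464842, minus strand) and SCC2 (YDR180W, chrIV:821295-825776, plus strand), at 47.8 to 371 kb from a centromere. No other annotated gene overlapped any of them. YER147C-A, an ORF with a name next to that of SCC4, is outside the annotation and could not be placed. The use of strand in counting is not given in the sources used here, so antisense reads could not be told apart for any gene.

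The libraries held between 53516242 and 57964567 counts, of which the 9 genes took 0.0785% and 0.0819% in trf4Δ, lower than the 0.0983% and 0.101% of the wild-type libraries. The groups did not overlap in this share, which amounts to scaling by library size alone. All 9 genes passed the filter on low counts, with between 719 and 13069 counts per gene and library. TRF4 itself, listed as PAP2 (YOL115W), was nearly absent from trf4Δ (21 and 40 counts) and well covered in the wild type (8102 and 8468 counts), so the counts followed the labels. Libraries of the same group differed by more than sampling noise, with a chi-square per degree of freedom of 101 in trf4Δ and 61.4 in the wild type. The first principal component of log2 CPM held 92.3% of the variance. MATa-specific markers were abundant in all 4 libraries, with summed levels of 938 to 1034 CPM in trf4Δ and 1382 to 1417 CPM in the wild type, while the 4 MATalpha-specific markers summed to 42.1 and 48.1 CPM in trf4Δ and 28.3 and 31.2 CPM in the wild type. Of the 6 MATa-specific genes, 5 were lower and 0 higher, with MFA2 (-0.73) and STE2 (-0.52) first, as log2 fold changes. Of the 4 MATalpha-specific genes, 2 were higher and 0 lower, namely STE3 (2.22) and SAG1 (0.50). Over all features, 28.9% were lower and 31.3% higher. With features ranked into 10 groups by mean abundance, the MATa-specific genes lay in the fourth to the tenth group. In those groups between 15.7% and 70.2% of features were called lower. The MATalpha-specific genes lay in the first to the fourth group, where between 38.0% and 59.5% of features were called higher. With library size alone, 1 MATa-specific gene was lower (median -0.13) and all 4 MATalpha-specific genes were higher. In that setting 739 of the 6372 features tested were lower and 3162 higher. No marker was at 0 in any library. The part of these markers in the results below was not tested.

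Without TRF4, 6 of the 9 cohesin genes were lower and 0 were higher at a threshold of 0.05 on the p-value of edgeR's quasi-likelihood model, adjusted by Benjamini-Hochberg over 6372 features. All 4 subunits of the ring, the loader subunit SCC2 and the maintenance factor PDS5 fell, whereas SCC4, RAD61 and ECO1 did not pass the test. Over all features tested, 28.9% were called lower and 31.3% higher. The median log2 fold change of the 9 genes was -0.56, against 0.014 for all features. Levels are given below as CPM, the count as a share of the library after TMM scaling, which sets libraries to a common level through the bulk of their features.

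MCD1, the kleisin, changed most in size. Its level was 82.3 and 96.9 CPM in the trf4Δ libraries and 169 and 174 CPM in the wild-type libraries. The groups did not overlap, although the trf4Δ libraries stood further apart than the wild-type libraries. The mean was 89.6 ± 10.3 CPM (SD, n = 2) against 171 ± 3.31 CPM (SD, n = 2), a 1.91-fold lower level, or -0.94 on the log2 scale (SE 0.10, edgeR adjusted p of 0.000215). Without the second trf4Δ library the log2 fold change of MCD1 was -1.06, and without the first it was -0.82.

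The ATPase genes fell together. SMC3 had 137 and 147 CPM in trf4Δ and 234 and 255 CPM in the wild type, a 1.72-fold lower level with a log2 fold change of -0.78 (SE 0.09) and an edgeR adjusted p of 0.00027. SMC1 had 138 and 138 CPM in trf4Δ and 211 and 215 CPM in the wild type, with a log2 fold change of -0.63 (SE 0.08) and an edgeR adjusted p of 0.000438. Both trf4Δ libraries were thus below both wild-type libraries for each ATPase, and the gap between groups exceeded the spread within them.

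IRR1, the subunit that binds the kleisin, had 90.6 and 88.4 CPM in trf4Δ and 127 and 137 CPM in the wild type. The groups did not overlap, at a log2 fold change of -0.56 (SE 0.09, edgeR adjusted p of 0.00118). PDS5, which shares with IRR1 the ability to bind the kleisin, had 87.1 and 92.5 CPM in trf4Δ and 141 and 154 CPM in the wild type. This gave a 1.64-fold lower level, a log2 fold change of -0.71 (SE 0.09) and an edgeR adjusted p of 0.000439.

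The loader subunits did not give the same result in the test. SCC2, the catalytic part of the loader, had 71.0 and 75.3 CPM in trf4Δ and 105 and 106 CPM in the wild type, with a log2 fold change of -0.53 (SE 0.09) and an edgeR adjusted p of 0.00141. Its groups were well apart. SCC4, which targets the loader to chromatin, had 39.8 and 38.2 CPM in trf4Δ and 41.8 and 40.3 CPM in the wild type. These values lay within a narrow range, and the log2 fold change of -0.072 had a 95% interval from -0.30 to 0.15 and an edgeR adjusted p of 0.535. The SCC4 interval therefore leaves out a fall as large as that estimated for SCC2.

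RAD61, the release factor, had 40.9 and 48.6 CPM in trf4Δ and 41.6 and 47.7 CPM in the wild type. The ranges of the groups overlapped, as in no other of the 9 genes, and the log2 fold change of RAD61 was 0.0031 (95% interval -0.28 to 0.29, edgeR adjusted p of 0.984). ECO1, the acetyltransferase, had 11.9 and 12.3 CPM in trf4Δ and 17.0 and 14.3 CPM in the wild type. Both trf4Δ libraries were lower, but the spread within the wild type was large beside the gap, and the log2 fold change of -0.37 (95% interval -0.70 to -0.03) had an edgeR adjusted p of 0.057. ECO1 was thus close to the threshold in this fit. It passed with size factors of the DESeq2 type (edgeR adjusted p of 0.0488) and with DESeq2 itself (adjusted p of 0.0461). With library size alone ECO1 was at -0.047 (edgeR adjusted p of 0.796), and with upper quartile scaling at -0.26 (edgeR adjusted p of 0.15).

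**Figure D2:**
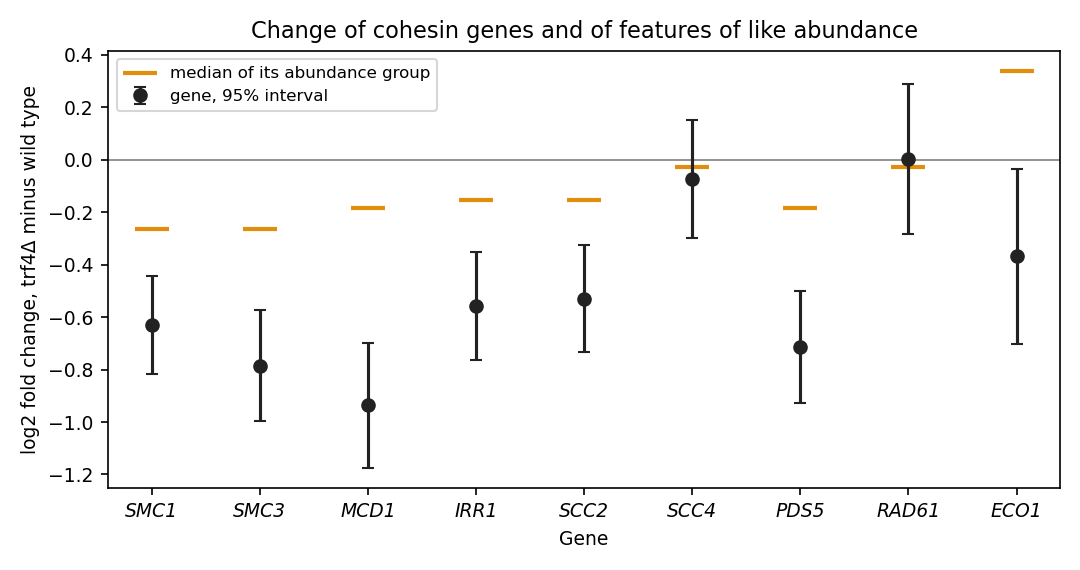
Log2 fold change of each cohesin gene, trf4Δ minus wild type (vertical axis), with its 95% interval from edgeR (black), and the median of all features in the same group of mean abundance (orange bar). The intervals of SMC1, SMC3, MCD1, IRR1, SCC2 and PDS5 lie below both 0 and the orange bar, those of SCC4 and RAD61 include both, and that of ECO1 lies just below 0 and well below its bar at 0.34.

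Both trf4Δ libraries lay below both wild-type libraries for 8 of the 9 genes and above them for 0, against 40.2% and 41.8% of all features. The direction depended on the scaling for the genes near 0. With library size alone, which moved the median of all features from 0.014 to 0.34, the median of the cohesin genes was -0.23, SCC2 (-0.21, edgeR adjusted p of 0.0669) lost its call, and RAD61 (0.32, edgeR adjusted p of 0.0449) was called higher. Relative to the median of all features, that of the 9 genes was -0.57, which a change of scaling leaves as it is by construction.

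Across the transcriptome the direction of change followed abundance, so each gene was also set beside features of its own abundance. Features were ranked by mean log2 CPM and divided into 10 groups. The 6 genes that fell lay in the seventh to the ninth group, where the median log2 fold change was between -0.16 and -0.26 and between 37.5% and 50.1% of features were called lower. MCD1 stood 0.75 below the median of its group, on the log2 scale, and 2.35% of the features of that group had a lower value. For SMC3, PDS5, IRR1, SCC2 and SMC1, between 9.42% and 17.4% of their groups had a lower value. ECO1, the least abundant of the genes, was in the third group, whose median was 0.34, and 8.79% of that group had a lower value. With 5 groups in place of 10, the median beside ECO1 was 0.22 and that beside SMC1 and SMC3 was -0.38 in place of -0.26. SCC4 and RAD61 were in the fifth group and close to its median of -0.028, at 45.8% and 52.4%.

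Levels of different genes were compared per length, as CPM per kilobase of coding sequence. In the wild type MCD1 was the most abundant at 101 ± 1.95 CPM per kb (SD, n = 2), followed by SMC3 at 66.2 ± 3.89 and SMC1 at 58.0 ± 0.826 CPM per kb (SD, n = 2). The libraries of these 3 genes did not overlap. PDS5 (38.4 ± 2.41 CPM per kb) and IRR1 (38.1 ± 2.05 CPM per kb) did not differ beyond their spread. SCC2 (23.6 ± 0.141 CPM per kb), RAD61 (23.0 ± 2.19 CPM per kb) and SCC4 (21.9 ± 0.571 CPM per kb) were close together, and the range of RAD61 covered those of both others. ECO1 was the lowest at 18.5 ± 2.21 CPM per kb. Per length, the kleisin RNA thus exceeded that of each ATPase in every wild-type library. Without division by length the order was turned, with 171 CPM for MCD1, 213 CPM for SMC1 and 244 CPM for SMC3.

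The order was flatter in trf4Δ. MCD1 still led at 52.7 ± 6.05 CPM per kb (SD, n = 2), and SMC3 (38.4 ± 2.05 CPM per kb) and SMC1 (37.5 ± 0.0398 CPM per kb) now overlapped. IRR1 (25.9 ± 0.447 CPM per kb), PDS5 (23.4 ± 0.994 CPM per kb) and RAD61 (23.0 ± 2.81 CPM per kb) followed, and the range of RAD61 included that of PDS5. SCC4 was at 20.8 ± 0.611 CPM per kb and above SCC2, at 16.3 ± 0.675 CPM per kb, in both libraries. ECO1 stayed lowest at 14.3 ± 0.316 CPM per kb.

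**Figure D3:**
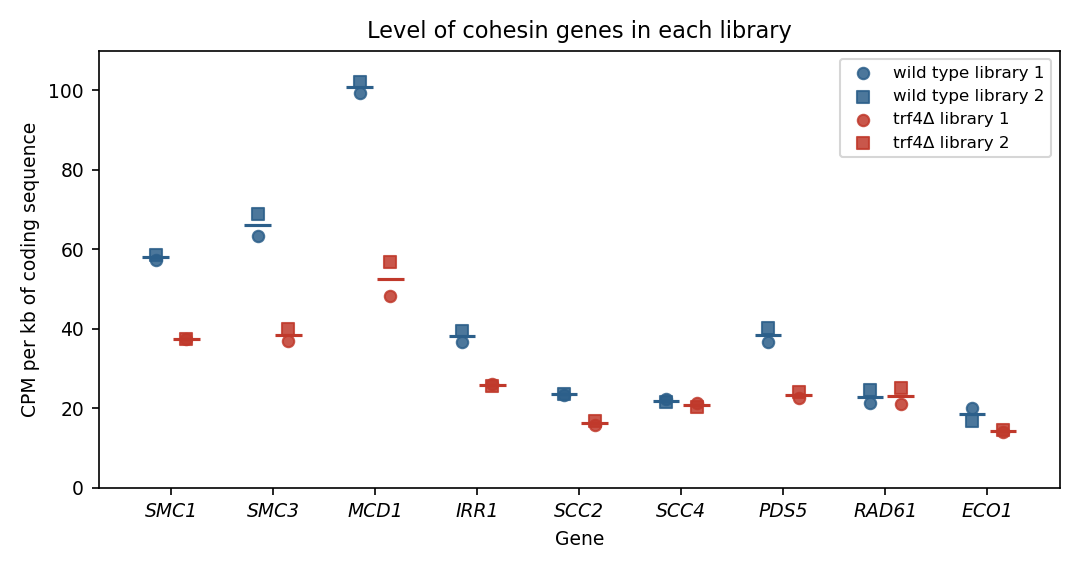
Level of each cohesin gene in CPM per kilobase of coding sequence (vertical axis, from 0) in the wild-type libraries (blue) and trf4Δ libraries (red), with a symbol per library and a bar at the mean of each group. The wild-type libraries of MCD1 sit at 99.4 and 102 and its trf4Δ libraries at 48.4 and 56.9, while the groups of SCC4 and RAD61 lie at about the same height.

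Ratios between genes of the same library are free of the scaling between libraries. Among the 4 ring subunits, MCD1 made up 38.7% and 37.9% of the summed counts per kb in the wild type and 32.5% and 35.6% in trf4Δ. IRR1 took 14.3% and 14.7% in the wild type and 17.6% and 16.0% in trf4Δ, and SMC3 stayed between 24.7% and 25.6% in all libraries. The MCD1/SMC1 ratio was 1.73 and 1.74 in the wild type and 1.29 and 1.52 in trf4Δ. The IRR1/SMC1 ratio was 0.639 and 0.676 in the wild type and 0.701 and 0.683 in trf4Δ, a smaller shift than that of MCD1.

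The ratios of the other regulators to SMC1 moved unequally. The mean SCC2/SMC1 ratio in trf4Δ was 1.07 times, the PDS5/SMC1 ratio 0.944 times, the ECO1/SMC1 ratio 1.2 times and the SCC4/SMC1 ratio 1.47 times that of the wild type. The RAD61/MCD1 ratio was 0.215 and 0.240 in the wild type and 0.434 and 0.439 in trf4Δ, a 1.92-fold higher mean. RAD61/PDS5, a pair whose proteins act together on the ring, had a ratio of 0.583 and 0.611 in the wild type and of 0.926 and 1.04 in trf4Δ. The ratio of the loader subunits, SCC4/SCC2, was 0.95 and 0.908 in the wild type and 1.34 and 1.21 in trf4Δ. The groups did not overlap for RAD61/MCD1, RAD61/PDS5 and SCC4/SCC2. The ratios were not tested, and with 2 libraries in each group an exact two-sided permutation test cannot give a p below 0.333.

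**Figure D4:**
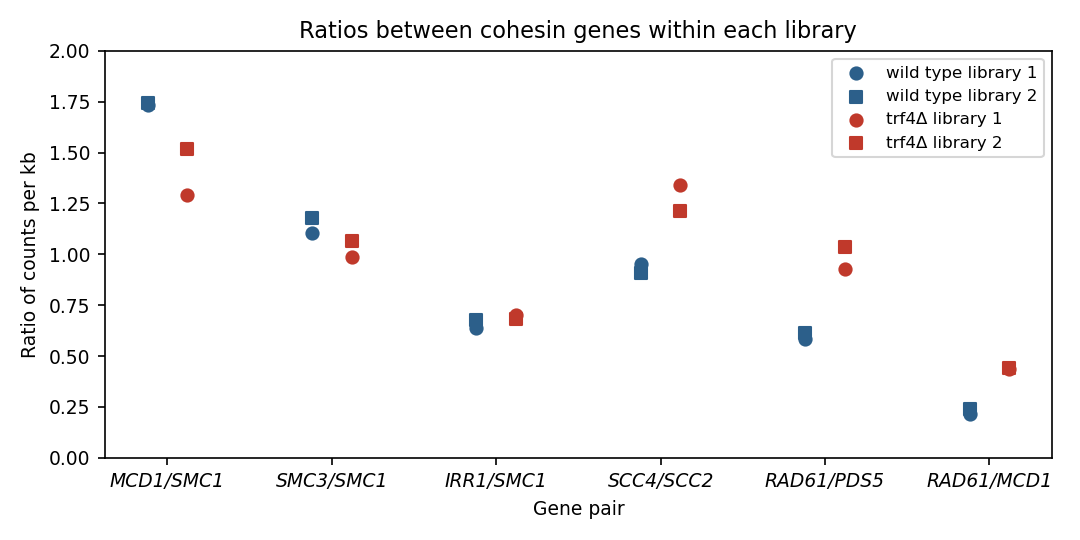
Ratio of counts per kilobase between pairs of cohesin genes within each library (vertical axis, from 0), in the wild type (blue) and trf4Δ (red), with a symbol per library. RAD61/MCD1 rises from 0.215 and 0.240 to 0.434 and 0.439 and SCC4/SCC2 lies higher in trf4Δ. IRR1/SMC1 also lies higher, by a smaller step, from 0.639 and 0.676 to 0.701 and 0.683.

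Genes that act with cohesin were then counted. Of 10 factors that link cohesion to the replication fork, 6 were lower and 0 higher, against 28.9% and 31.3% of all features. Their median log2 fold change was -0.43. With library size alone, 3 were lower (median -0.11), against 739 of 6372 features. These genes lay in the third to the eighth abundance group, where between 8.32% and 42.2% of features were called lower. CTF18, of the clamp loader that supports cohesion, was at -0.68 (SE 0.09, edgeR adjusted p of 0.000501) and TOF1, of the fork protection complex, at -0.59 (SE 0.09, edgeR adjusted p of 0.000982). HOS1, which removes the acetyl groups that Eco1 adds, was at -0.013 and did not pass the test.

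Of 6 genes of cohesin cleavage and its control, 5 were lower and 0 higher, against 28.9% and 31.3% of all features. Their median was -0.58. With library size alone, 3 were lower and 1 higher (median -0.26), against 739 and 3162 of 6372 features. These genes lay in the fourth to the ninth abundance group, where between 15.7% and 50.1% of features were called lower. CDC5, the polo kinase that promotes cleavage of the kleisin, was at -0.73 (edgeR adjusted p of 0.000426), and SGO1, the shugoshin of pericentromeric cohesin, was at -0.75 (edgeR adjusted p of 0.000907). The separase gene ESP1 and its inhibitor PDS1 were also lower, at -0.56 and -0.61. RTS1, a subunit of the phosphatase PP2A, did not pass the test at -0.025.

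Of 6 genes that bring the loader to centromeres, the test called 2 higher and 1 lower, shares near the 31.3% and 28.9% of all features. The median was 0.24. With library size alone, 5 were called higher and 0 lower, against 3162 and 739 of 6372 features. IML3 and CHL4, kinetochore subunits needed for dense pericentromeric cohesin, were higher at 0.51 (edgeR adjusted p of 0.00444) and 0.50 (edgeR adjusted p of 0.00587), and they lie in the fourth and the third abundance group, where 38.0% and 50.1% of features were called higher. DBF4, which activates the kinase Cdc7, was lower at -0.43 (edgeR adjusted p of 0.00822).

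The other complexes built on SMC proteins were counted beside the 28.9% of all features that were called lower. With library size alone, 739 of 6372 features were called lower and 3162 higher. Of 5 condensin genes, 3 were lower and 0 higher, with a median of -0.28 that turned to 0.047 with library size alone, where 0 were lower and 1 was higher. YCS4 was at -0.52 and YCG1 at -0.39 (edgeR adjusted p of 0.0023 and 0.0066), while the ATPase gene SMC2 was at 0.045 and did not pass. Of 8 genes of the Smc5/6 complex, 3 were lower and 0 higher, with a median of -0.23 that likewise turned to 0.096, with 0 lower and 2 higher. A count of 3 in 8 is near the 28.9% of all features. The condensin genes lay in the fifth to the ninth abundance group, where between 27.4% and 50.1% of features were called lower. The Smc5/6 genes lay in the third to the seventh group, where this share was between 8.32% and 37.5%. NSE3 (-0.47) and SMC6 (-0.45) had the smallest adjusted p, at 0.00358 and 0.00366 by edgeR. The medians of both complexes were above that of cohesin, but the difference between lists was not tested.

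Of 6 meiotic genes, all 6 were higher, against 31.3% of all features, with a median of 1.28. All 6 were also higher with library size alone, a setting in which 3162 of 6372 features were called higher. The list holds the meiotic kleisin gene REC8, the chromosome axis genes HOP1 and RED1, SPO11 of break formation, and SPO13 and MAM1, which act in the segregation of the first meiotic division. REC8, the kleisin that takes the place of Mcd1 in meiosis, had 187 and 182 counts in the wild-type libraries and rose to 456 and 666 without TRF4. Its log2 fold change was 1.37 (SE 0.23, edgeR adjusted p of 0.00157), a 2.58-fold higher level. REC8 remained a minor transcript, and counts per kb of MCD1 exceeded those of REC8 by 55.3-fold and 58.9-fold in the wild-type libraries and by 13.1-fold and 10.5-fold in the trf4Δ libraries. SPO13 (1.77) and SPO11 (1.67) had the smallest adjusted p of the list, at 0.000558 and 0.000349 by edgeR. Apart from RED1, the genes of this list are of low abundance. In the second abundance group, which holds REC8, SPO11, SPO13 and HOP1, 59.5% of features were called higher and the median log2 fold change was 0.72. MAM1 lies in the first group, where 52.9% of features were called higher. RED1 lies in the fifth group, where 29.0% of features were called higher.

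Lists of genes with peaks at known stages of the cell cycle were set beside the cohesin genes, since several cohesin genes peak near S phase. Over all 6372 features, 28.9% were called lower and 31.3% higher, or 739 and 3162 features with library size alone. Of 16 G1/S genes of the MBF type, 14 were lower and 0 higher, with a median of -0.64. With library size alone, 9 were lower and 1 higher (median -0.32). MSH6, a mismatch repair gene, was at -0.82 (edgeR adjusted p of 0.000146) and RAD27, a flap nuclease gene, at -0.83 (edgeR adjusted p of 0.000213). Of these 16 genes, 12 had ACGCGT in the promoter window, a feature close to the reason for which the list was chosen. Of 9 G2/M genes, 6 were lower and 0 higher (median -0.35, or 2 lower and -0.025 with library size alone), with CLB2, the main mitotic cyclin, at -0.88 and HST3, a histone deacetylase gene, at -0.59. Of 8 M/G1 genes, 4 were lower and 1 higher (median -0.35, or 1 lower, 1 higher and -0.027 with library size alone). In that list DSE1 (-0.59) and DSE2 (-0.42), both of cell separation, had the smallest adjusted p. ASH1, a repressor of mating-type switching, was the gene that was higher (0.48). The G1/S genes lay in the third to the ninth abundance group, where between 8.32% and 50.1% of features were called lower. The G2/M genes lay in the fifth to the ninth group, where this share was between 27.4% and 50.1%. The M/G1 genes lay in the fifth to the tenth group, where it was between 27.4% and 70.2%. In bulk RNA, fewer cells at a stage and less RNA per cell cannot be told apart.

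**Figure D5:**
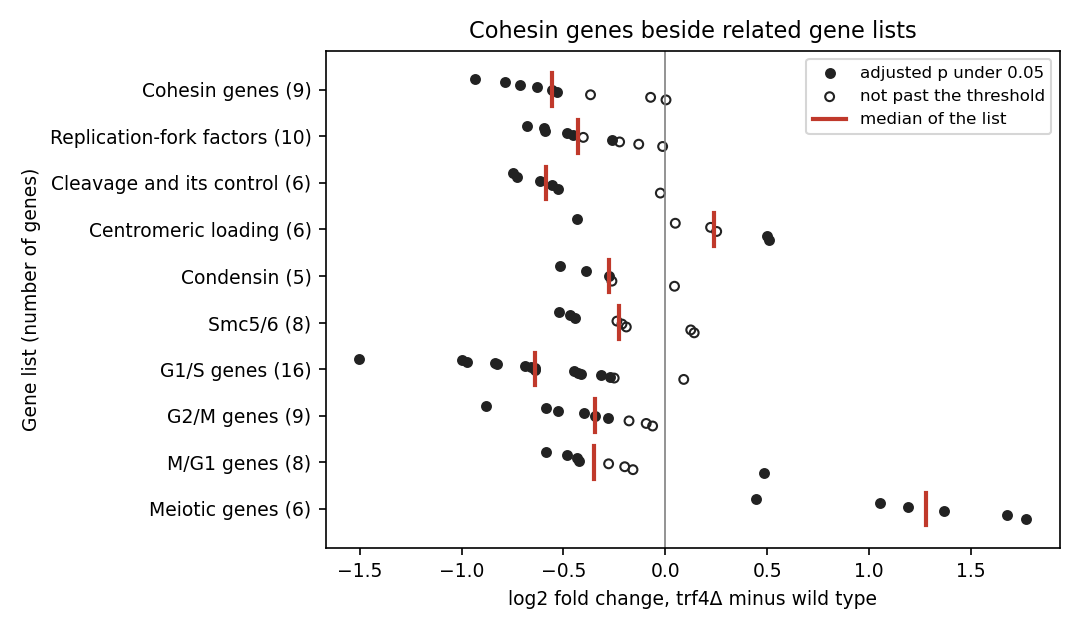
Log2 fold change, trf4Δ minus wild type (horizontal axis), of every gene in the cohesin list and in 9 related lists (rows, with the number of genes), with filled points for an adjusted p under 0.05, open points for the rest and a red bar at the median of each list. The cohesin median of -0.56 lies near that of the cleavage genes (-0.58) and the G1/S genes (-0.64), while the centromeric loading genes (0.24) and the meiotic genes (1.28) lie above 0.

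Over all genes with a promoter window, the median log2 fold change was -0.26 for the 183 tested genes with ACGCGT and -0.012 for the 5657 without it. This is a description only, since genes with the element are not independent of each other. The sets were also not matched for abundance, which the direction of change followed, and the part of abundance in this difference was not tested. Among the cohesin genes, the 5 with ACGCGT in the window had log2 fold changes from -0.78 to -0.37. Those without it ranged from -0.94 (MCD1) to 0.0031 (RAD61), so the letters in this window did not separate the genes that fell from the others. MCD1 had matches in the window of 500 bases, which left SCC2 (-0.53), SCC4 (-0.072) and RAD61 without one.

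The genes most like MCD1 in level and pattern were sought by the distance between log2(CPM + 1) values over the 4 libraries, among 6255 nuclear ORFs. The closest were SSF2, a ribosome assembly gene (distance 0.115), RPL33B, a gene of the large ribosomal subunit (distance 0.16), and SDO1, a gene of 60S maturation (distance 0.178). SSF2 had 88.3 and 99.0 CPM in trf4Δ and 172 and 179 CPM in the wild type. RPL33B has a close paralogue, so its counts are uncertain. With 4 libraries in 2 groups this distance reflects little more than the mean level and the difference between groups.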

How the data were processed

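Per the labels, total RNA was depleted of ribosomal RNA, and ScriptSeq libraries were sequenced as paired ends on a HiSeq instrument. The authors deposited whole-number counts per feature without normalisation. The submitters' processing notes name STAR 2.5.3 and the build sacCer3, and the counting program and annotation are not given in the sources used here. The paper supplied with the series describes other experiments, and no method or value of it was used.

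Features were kept by filterByExpr (6372 of 7445), scaled by TMM and tested with glmQLFit and glmQLFTest in edgeR 4.0.16 (R 4.3.3), two-sided, on all 4 libraries without covariates, with Benjamini-Hochberg adjustment over all features and a threshold of 0.05. The SE was taken from the size of the log2 fold change and the F statistic. The script was tested on simulated data. Symbols, coding lengths and sequences came from RefSeq R64, in which 6048 features matched by systematic name. The total count was 53516242 and 54176921 in trf4Δ, and in the wild type it was 56363561 and 57964567. Libraries were numbered in deposition order. The 9 genes, the lists and the tests were chosen with earlier results of these data known. All 9 genes were named, with TRF4, the 2 genes in each list whose adjusted p was smallest, and 3 nearest patterns; ESP1, PDS1, RTS1, HOS1, SMC2, ASH1, DBF4, REC8 and YER147C-A were added after values were seen. Alternatives were other scalings, filters, thresholds, robust fitting, DESeq2 1.42.0, 5 abundance groups, levels without division by length and leaving out each library. Figures used matplotlib 3.10.9.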

Additional observations from a re-analysis of the deposited data

How the results depend on the processing

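The calls of MCD1, SMC3, SMC1, PDS5 and IRR1 were the same under all 13 alternatives, and that of SCC2 under 12. Library size alone gave 739 features lower and 3162 higher in place of 1840 and 1992, 1 cohesin gene higher, and 5 lower in place of 6. The median of the cohesin genes was -0.23 with library size alone and -0.45 with upper quartile scaling, and it ranged from -0.61 to -0.52 when each library was left out. SCC4 changed sign with library size alone (0.25) and upper quartile scaling (0.034). RAD61, whose value is close to 0, changed sign with size factors of the DESeq2 type (-0.011), with no filter (-0.0028), with DESeq2 (-0.015), without the second trf4Δ library (-0.13) and without the first wild-type library (-0.09), and it ranged from -0.13 to 0.12 when each library was left out. In each of these settings, RAD61 did not pass the test. ECO1 without the first wild-type library was at -0.24 and without the second at -0.48. The cause of these changes was not tested. In the fits that leave out a library, an arm has 1 library, which is assumed to vary like the other group, and 6 cohesin genes were lower in each of the 4 fits. The number of G2/M genes called fell from 6 to 3 without the first trf4Δ library or without the second wild-type library, and that of MATa-specific genes from 5 to 3 without the second trf4Δ library. No paired analysis was possible because the labels give no replicate numbers that the groups share. Each gene had at least 719 counts in every library. With 5 abundance groups in place of 10 the medians beside SMC1, SMC3 and ECO1 moved, and without division by length the ranks of MCD1, SMC3 and SMC1 changed.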
